A study of Caenorhabditis elegans with 12 samples.

Results

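The genes described here are the pals family of Caenorhabditis elegans and named members of other immune-linked gene families. They were taken by name: each gene whose current symbol starts with pals-, spp-, clec-, lys-, ilys-, cnc-, fbxa-, fbxb-, fbxc-, math- or skr- was a member, with 1 probe per gene. This gave 27 of the 8187 named genes on the array. They were 24 of the 38 protein-coding pals genes in the WBcel235 annotation, 2 of 30 spp genes (spp-24 and spp-31) and 1 of 48 fbxc genes (fbxc-58). The clec, lys, ilys, cnc, fbxa, fbxb, math and skr families had no probe with a name and are not analysed here. A further 13613 of the 22370 probes are unnamed, so members of any of these families may lie among them.

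The tested worms were wild-type N2 hermaphrodites kept on NGM plates with 10 mM lithium chloride (LiCl) for 48 h at 25 °C. The control worms were N2 hermaphrodites kept in the same way on NGM without LiCl. Both groups had been cultured from the egg at 20 °C, each had 6 independently grown populations, and a sample was 50 whole worms. The stage of the worms at harvest is not given in the labels. Amplified RNA of each sample, labelled with Cy5, was hybridised on an array of its own together with a Cy3-labelled pool of mixed-stage N2 RNA. Each value is the deposited log ratio of a probe, read as log2 and as sample over reference. The base, a scale factor and the direction are not stated, so sizes are given in log ratio units, with no fold changes. A difference is always LiCl minus control, and with the ratio turned every higher value here would read as lower.

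The pals proteins are named for a domain signature shared with the vertebrate ALS2CR12 protein, and the family is expanded in C. elegans. Several pals genes belong to the intracellular pathogen response, a set of transcripts that rise in worms infected by microsporidia or the Orsay virus, and also under proteotoxic stress. Within this response pals-22 and pals-17 act as repressors, pals-25 and pals-16 act as activators, and pals-5 is widely used as its reporter gene. Saposin-like spp genes encode small proteins, some of them antimicrobial in the gut, and F-box proteins such as those of the fbxc family can bring substrates to ubiquitin ligases.

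Array medians lay between 0.0181 and 0.0435, and between 16 and 150 probes lacked a value on an array. Pairs of arrays correlated at 0.523 to 0.779 across probes, so no sample appeared to be a copy of another. All 27 members were tested, and 26 had a value on all 12 arrays. pals-28 lacked a value on control replicate 5 and was fitted on 11 arrays. LiCl replicate 1 had the lowest array weight, 0.524, followed by LiCl replicate 2 with 0.612 and control replicate 5 with 0.698.

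After LiCl, 1 of the 24 pals genes was higher at an adjusted p under 0.05 (limma, Benjamini-Hochberg adjustment over all probes) and none was lower. This gene was pals-2. That is 4.17% of the family, against 8.0% of all probes called in either direction, 4.50% called higher and 3.50% called lower, so the share of called genes was not above the background. Differences ran from -0.63 in pals-31 to 1.12 in pals-38, with a median of 0.24, whereas the median over all probes was 0.019. The difference was above 0 in 18 of the 24 pals genes, against 51.7% of all probes. An unadjusted p under 0.05 was found in 7 pals genes on the higher side and 1 on the lower side, or 33.3% of the family, against 22.8% of all probes (12.1% higher and 10.7% lower). These are counts over genes measured in the same worms, and no test was made over the family.

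**Figure D1:**
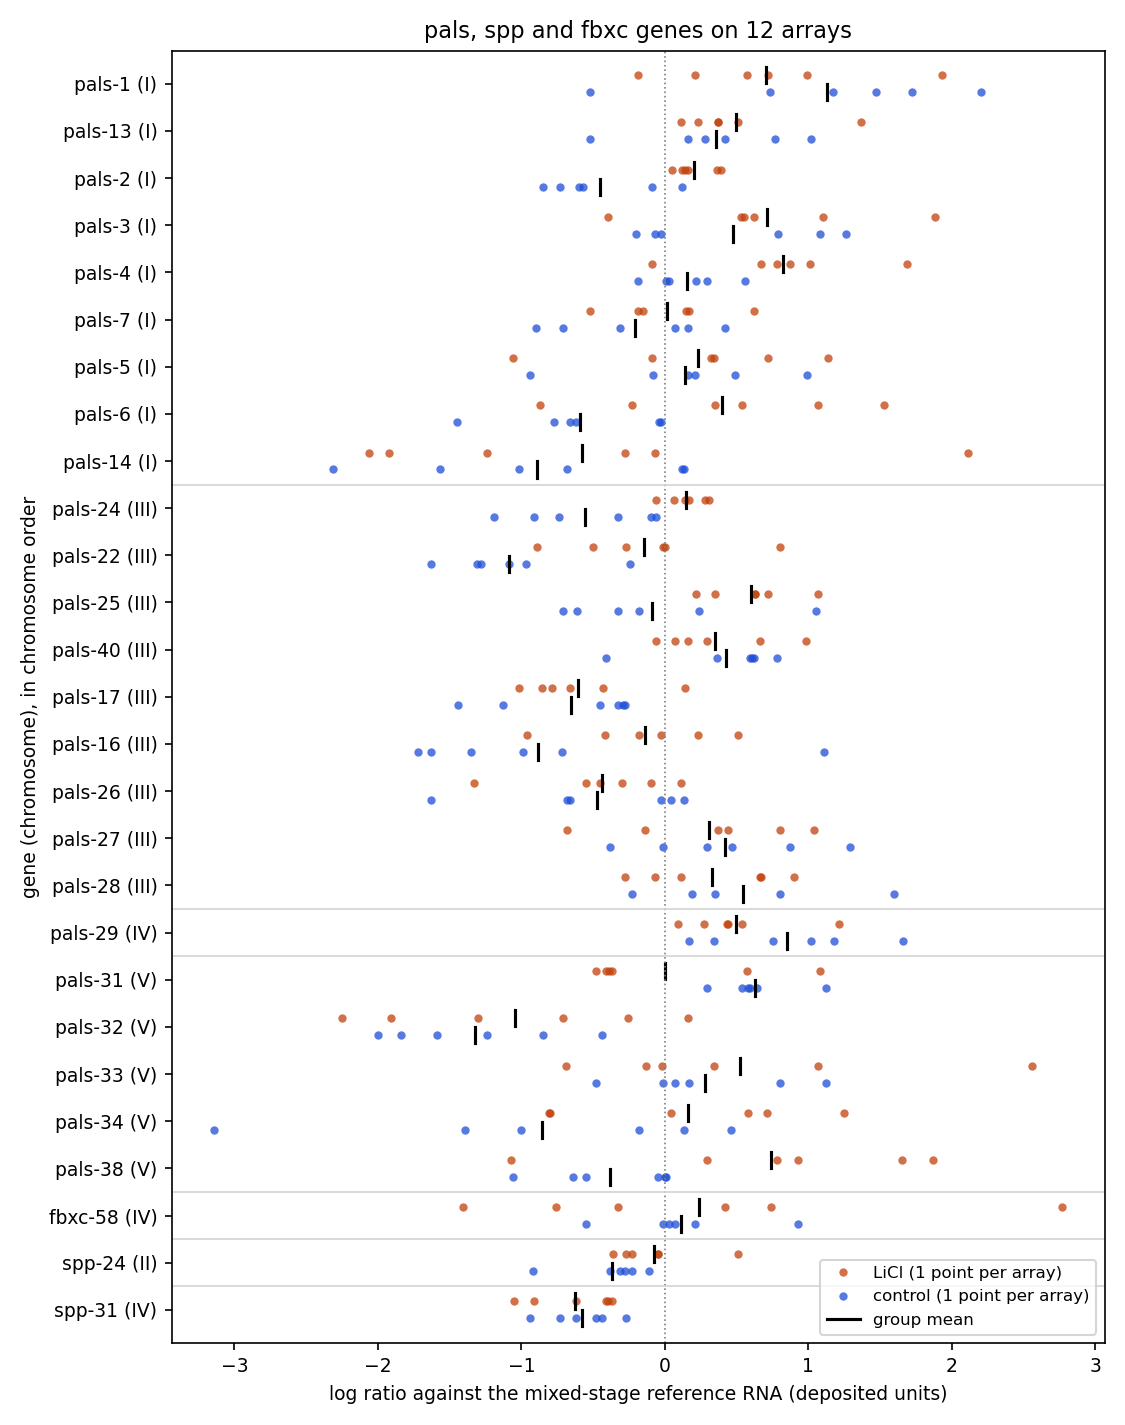
Log ratio of each member against the mixed-stage reference on every array (x axis, deposited log ratio units), with LiCl arrays (orange) above control arrays (blue) for each gene, and a black bar at each group mean. Genes run down the page in chromosome order, with the chromosome in brackets. Only in pals-24 do the LiCl arrays all lie above the control arrays.

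The repressor pals-22 and the activator pals-25 lie side by side on chromosome III, and both were measured. For pals-22 the LiCl arrays had a log ratio of -0.89 at the lowest, -0.14 at the median and 0.80 at the highest, against -1.63, -1.18 and -0.24 on the control arrays. All control values were below 0, and 3 of 6 LiCl arrays lay above every control array. The difference was 0.94 ± 0.29 (SE, n = 6 per group), with an adjusted p of 0.0662 in limma's test, just outside the threshold. Leaving out control replicate 5, the highest control array for this gene, brought it to 1.11 with an adjusted p of 0.031. It also passed without LiCl replicate 4 (difference 1.09, adjusted p = 0.0401), the lowest LiCl array. It failed in the other 10 fits that left out 1 array, with differences down to 0.75 and adjusted p up to 0.131, and the replicate block gave 0.106.

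pals-25 had log ratios of 0.22 at the lowest, 0.63 at the median and 1.07 at the highest on the LiCl arrays, against -0.71, -0.25 and 1.05 on the control arrays. All 6 LiCl values were above 0, and 4 of the 6 control values were below it. One control array, replicate 3, stood at 1.05, within the LiCl range. The difference was 0.69 ± 0.28 (SE, n = 6 per group) with a limma adjusted p of 0.16, and without control replicate 3 it was 0.92 with an adjusted p of 0.0289. No other fit of the 12 that left out 1 array passed, and the adjusted p reached 0.283. So the repressor and the activator of the pair both had higher means in LiCl, and neither passed on the full set of arrays.

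pals-24, separated from pals-22 by 4 protein-coding genes, is the only member in which the groups did not overlap. Its log ratios were -0.06, 0.15 and 0.31 (lowest, median and highest) on the LiCl arrays and -1.19, -0.54 and -0.06 on the control arrays. The gap is narrow: the lowest LiCl array was at -0.060 and the highest control array at -0.064. Among all probes 6.61% had groups without overlap, 3.60% with LiCl higher, against this 1 of 24 pals genes. The difference was 0.71 ± 0.21 (SE, n = 6 per group, limma adjusted p = 0.0541). Leaving out control replicate 4 (0.80, adjusted p = 0.0461) or control replicate 6 (0.80, adjusted p = 0.0417), the controls nearest to LiCl, brought it past the threshold. Those were the only 2 of the 12 fits leaving out 1 array that passed, and the adjusted p reached 0.103 in the others. The 3 neighbours pals-24, pals-22 and pals-25 thus had differences of 0.69 to 0.94, each with a 95% interval above 0 and each short of the adjusted threshold. These intervals are unadjusted, and 12.1% of all probes had an unadjusted p under 0.05 on the higher side in limma's test. Genes were grouped as neighbours after their values were seen, and all 3 were measured on the same arrays.

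The other regulators sit in a second neighbourhood of chromosome III with pals-40. The repressor pals-17 had nearly the same log ratio in both groups, with a mean of -0.60 ± 0.41 in LiCl and -0.65 ± 0.50 in control (SD, n = 6 each). Its difference of 0.05 had a 95% interval of -0.51 to 0.61, which covers shifts in either direction. Its direct neighbour pals-16, an activator, ranged from -0.96 to 0.51 with a median of -0.11 on the LiCl arrays, and from -1.72 to 1.11 with a median of -1.17 on the control arrays. The highest value of all was on control replicate 5, which stood far from the other controls. The difference was 0.74 ± 0.44 (SE, n = 6 per group, limma adjusted p = 0.347), and once that array was left out it was larger, with an adjusted p of 0.0324. Of the 12 fits that left out 1 array only this 1 passed, and the adjusted p reached 0.52 in the rest. pals-40 differed by -0.076, with a 95% interval of -0.59 to 0.44.

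The largest group of neighbours was on chromosome I, where 8 measured pals genes lay with at most 2 other protein-coding genes between one and the next. All 8 differences were above 0, from 0.09 in pals-5 to 0.99 in pals-6, with a median of 0.28. Among all probes 51.7% were above 0. Of the 8 genes 1 passed the test, against 4.50% of all probes called higher. This grouping too was made after the values were seen, and all 8 were measured on the same arrays. How alike the probe sequences of these genes are was not checked. The common direction did not hold in every setting. Without the 4 arrays of lowest weight, pals-3 (-0.086), pals-7 (-0.02), pals-13 (-0.11) and pals-14 (-0.26) were below 0. With 1 array left out, pals-5 ranged from -0.13 to 0.35. The reporter gene pals-5 had a lowest log ratio of -1.06 and a median of 0.33 on the LiCl arrays, against -0.94 and 0.19 on the control arrays. The highest control array stood at 0.99, with 1 LiCl array slightly above it, so the groups covered almost the same range. The difference was 0.09 ± 0.37 (SE, n = 6 per group), with a 95% interval of -0.72 to 0.90.

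pals-2 was the called gene. Its log ratios were 0.05 at the lowest, 0.15 at the median and 0.39 at the highest on the LiCl arrays, and -0.85, -0.58 and 0.12 on the control arrays. All 6 LiCl arrays were above 0, 5 of them above every control array, and 5 of 6 control arrays were below 0. The LiCl values lay closer together, with a mean of 0.20 ± 0.14 in LiCl and -0.45 ± 0.38 in control (SD, n = 6 each). The difference was 0.66 ± 0.18 (SE, limma adjusted p = 0.0454). Its unadjusted p of 0.00336 lay close to 0.00399, the largest among called probes, and by p the gene ranked 1656 among the 22370 probes. The call was lost in 10 of the 12 fits that left out 1 array (adjusted p between 0.0607 and 0.0969), and it held without control replicate 1 (0.0425) or control replicate 4 (0.0199). With the replicate number as a block the adjusted p was 0.085, and with array weights it was 0.0531. Its difference stayed between 0.49 and 0.77 under all 22 settings that tested it.

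In the same neighbourhood pals-6 had the largest difference, and pals-4 and pals-2 differed by nearly the same amount. pals-6 had log ratios of -0.87, 0.44 and 1.53 (lowest, median and highest) on the LiCl arrays and -1.45, -0.64 and -0.03 on the control arrays. Every control array was below 0, whereas 4 LiCl arrays were above it. The difference was 0.99 ± 0.38 (SE, n = 6 per group, limma adjusted p = 0.139), and it was 1.25 (adjusted p = 0.0496) without LiCl replicate 5, the lowest LiCl array. Every other fit of the 12 that left out 1 array failed, with adjusted p up to 0.246.

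For pals-4, 5 of 6 LiCl arrays lay above every control array. Its log ratios were -0.09, 0.83 and 1.69 on the LiCl arrays and -0.19, 0.12 and 0.56 on the control arrays, as lowest, median and highest. LiCl replicate 2 was the exception, at -0.09. The difference was 0.67 ± 0.25 (SE, n = 6 per group, limma adjusted p = 0.129), and 0.85 (adjusted p = 0.0313) without that array. It failed in the other 11 fits that left out 1 array, with differences down to 0.50 and adjusted p up to 0.227. The remaining genes of the group, pals-3, pals-7, pals-13 and pals-14, had differences of 0.14 to 0.31, each with a 95% interval that included 0. pals-14 had the widest spread of all members, from -2.06 to 2.11 on the LiCl arrays and from -2.31 to 0.13 on the control arrays. pals-1, on the same chromosome but 311 protein-coding genes away from pals-13, differed by -0.42 (95% interval -1.39 to 0.54), and by -0.75 without control replicate 6 or -0.21 without control replicate 4.

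**Figure D2:**
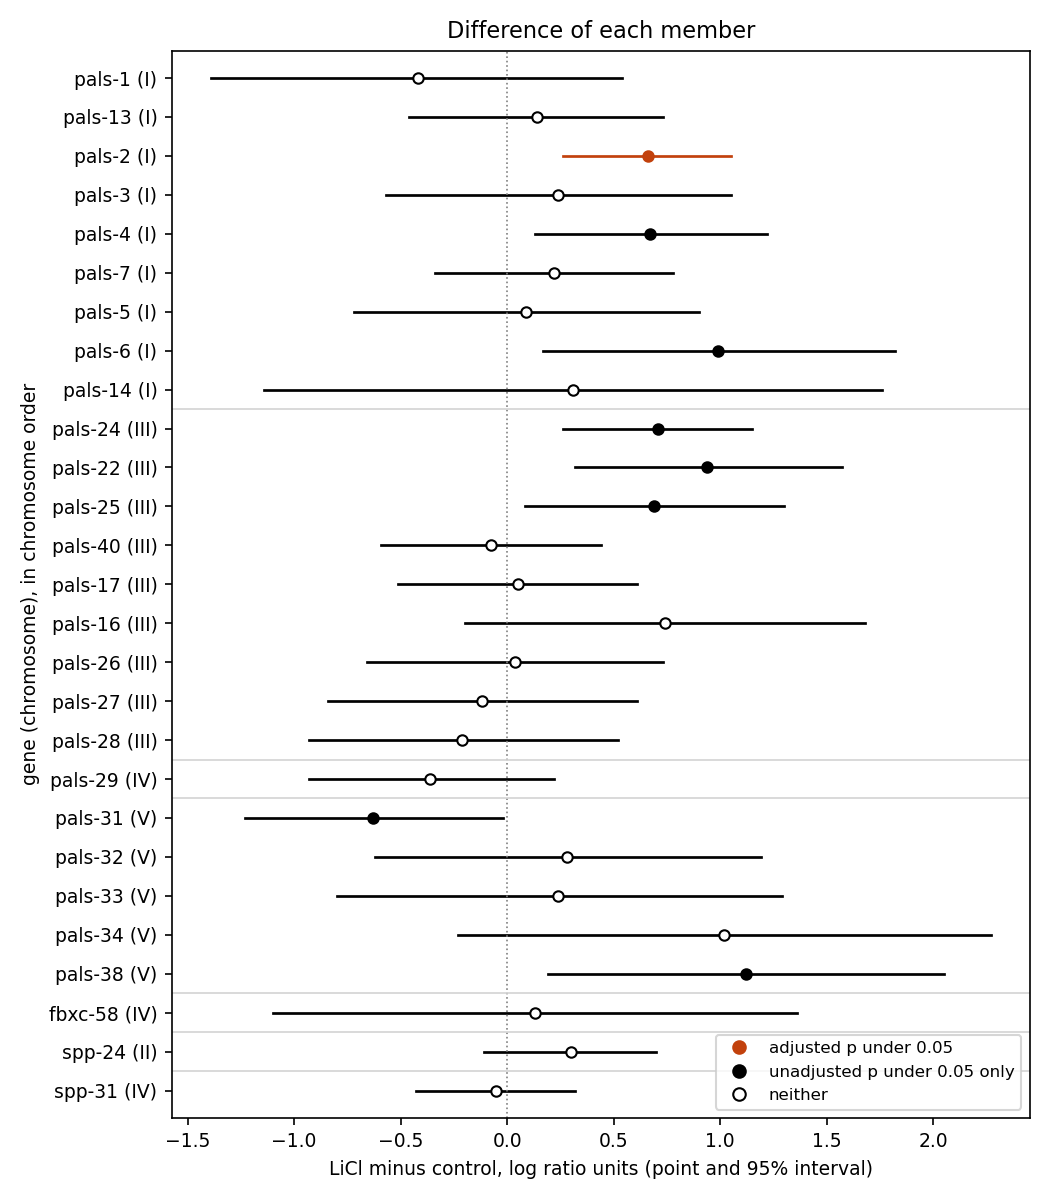
LiCl minus control difference of each member in log ratio units (point) with its 95% interval (line) from the limma fit on all 12 arrays. Genes are in chromosome order. pals-2 alone is past the adjusted threshold (orange), and all 8 genes from pals-13 to pals-14 on chromosome I and all 3 from pals-24 to pals-25 on chromosome III have points above 0.

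The third neighbourhood of chromosome III holds pals-26, pals-27 and pals-28, which showed no common direction. Their differences were 0.035, -0.12 and -0.21, and all 3 intervals included 0 and stayed within 1 log ratio unit of it. pals-26 was the only member with a second probe. That probe differed by 0.13 ± 0.16 (SE), against 0.035 ± 0.32 (SE) on the first, and neither passed. The second probe had the tighter spread, with a residual SD of 0.24 against 0.59.

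On chromosome V the 5 measured pals genes lay at least 217 protein-coding genes apart and had differences in both directions. pals-38 had the largest difference of the family, 1.12 ± 0.43 (SE, n = 6 per group, limma adjusted p = 0.136). Its log ratios were -1.07, 0.85 and 1.87 (lowest, median and highest) on the LiCl arrays and -1.06, -0.30 and 0.01 on the control arrays. 5 LiCl arrays lay above every control array, and the sixth, LiCl replicate 6, lay below all of them. Without it the difference was 1.48 and the adjusted p was 0.0154. That array lay against the difference, so leaving it out enlarged the difference by construction. Only this 1 of the 12 fits that left out 1 array passed, and the adjusted p reached 0.245 in the others.

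pals-34 followed with a difference of 1.02 ± 0.58 (SE, limma adjusted p = 0.327). Its log ratios were -0.81, 0.31 and 1.25 (lowest, median and highest) on the LiCl arrays and -3.14, -0.59 and 0.46 on the control arrays. The value of -3.14 was on control replicate 5, and without that array the difference was 0.56 (adjusted p = 0.517). pals-32 and pals-33 differed by 0.28 and 0.24, both with intervals that included 0.

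pals-31 ran the other way. This gene had log ratios of -0.48, -0.38 and 1.08 (lowest, median and highest) on the LiCl arrays and 0.29, 0.58 and 1.12 on the control arrays. All control arrays were above 0, while 4 LiCl arrays lay below every control array, and LiCl replicates 2 and 6 lay within the control range. The difference was -0.63 ± 0.28 (SE, n = 6 per group, limma adjusted p = 0.204). It was -0.84 with an adjusted p of 0.0415 without LiCl replicate 2, the highest LiCl array. The other fits of the 12 that left out 1 array failed, with adjusted p up to 0.328. pals-29, the only measured pals gene of chromosome IV, had a difference of -0.36 with a 95% interval of -0.93 to 0.22.

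**Figure D3:**
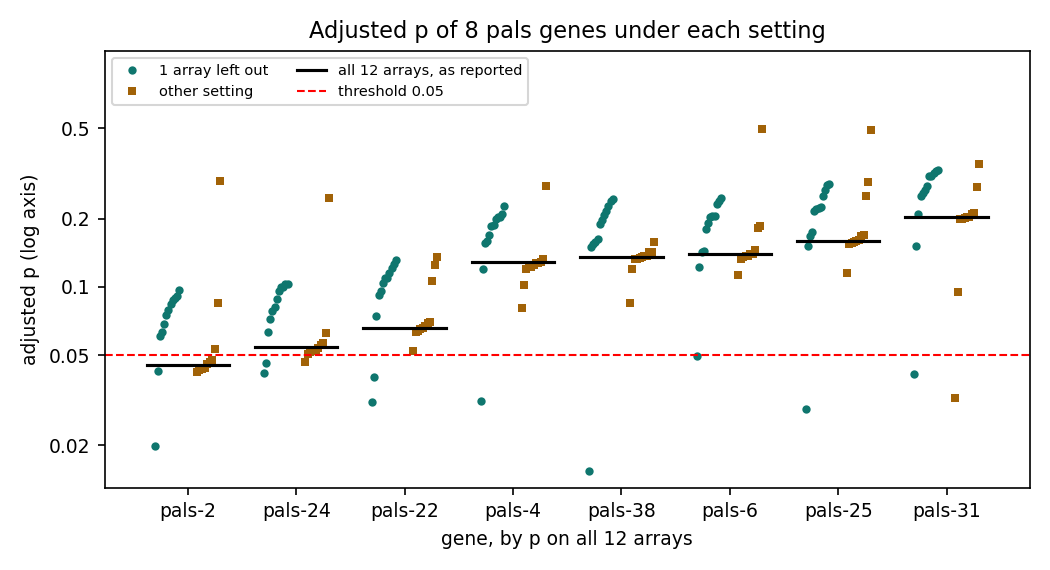
Adjusted p (y axis, log scale) of the 8 pals genes with an unadjusted p under 0.05, with 1 array left out (circles), under the other settings (squares) and on all 12 arrays (black bar). The dashed line is the threshold of 0.05. The bar of pals-2 lies at 0.0454, just under the line, most of its circles lie above it, and each of the other 7 genes has at least 1 circle below it.

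Which pals genes pass thus changed with the arrays used. When each array was left out in turn, 0 to 2 pals genes were called. Beside pals-2, the fits that called a gene were ones that left out an array lying against its difference. Leaving out such an array enlarges the difference by construction, so these calls are no added support. Of the 12 fits, 2 called pals-22 and 2 called pals-24, and 1 each called pals-25, pals-16, pals-6, pals-4, pals-38 and pals-31. In the fits that failed, the adjusted p reached 0.103 for pals-24, 0.283 for pals-25, 0.52 for pals-16, 0.246 for pals-6, 0.245 for pals-38 and 0.328 for pals-31. Array weights also brought pals-24 past the threshold (0.75, adjusted p = 0.0468). The 4 arrays of lowest weight were control replicate 5 and LiCl replicates 1, 2 and 6, and without them pals-31 alone was called, with a difference of -1.05 (adjusted p = 0.0325), while pals-2 differed by 0.49 (adjusted p = 0.294). On those 8 arrays 3.75% of all probes were called, 15 of the 24 pals genes had a difference above 0 and the median over the family was 0.32. With 1 array left out the number above 0 was between 15 and 18 and the median between 0.15 and 0.41, against a median over all probes of 0.013 to 0.023.

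The pals probes varied more between replicate arrays than most probes did. The residual SD within groups had a median of 0.59 over the 24 genes, against 0.48 over all probes, and 17 of the 24 lay above that value. It ranged from 0.29 in pals-2 to 1.29 in pals-14. The median width of the 95% interval of a difference was 1.42 for pals genes and 1.16 for all probes. In 9 of the 24 genes the interval lay wholly within 1 unit of 0, pals-5, pals-17 and pals-40 among them.

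Log ratios against the mixed-stage reference were moderate throughout the family. Group means ran from -1.04 (pals-32) to 0.82 (pals-4) in LiCl, and in control the lowest was -1.33 (pals-32) and the highest that of pals-1. The mean was above 0 for 17 pals genes in LiCl and for 11 in control, while over all probes it was above 0 for 11589 and 11717 of 22370. A log ratio above or below 0 places a transcript against the reference pool and says nothing about its amount relative to another gene.

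Outside the pals family 3 members were measured, and none passed the test or reached an unadjusted p under 0.05. The saposin-like gene spp-24 had log ratios of -0.36, -0.14 and 0.51 (lowest, median and highest) on the LiCl arrays and -0.92, -0.30 and -0.11 on the control arrays. The difference was 0.30, with a 95% interval of -0.11 to 0.70, and 3 LiCl arrays lay above every control array. spp-31 was below 0 on all 12 arrays and differed by -0.052 (95% interval -0.43 to 0.32). The F-box gene fbxc-58 had a wider spread in LiCl, with a mean of 0.24 ± 1.46 in LiCl and 0.11 ± 0.48 in control (SD, n = 6 each), and LiCl replicate 2 stood at 2.77. Its difference was 0.13, with a 95% interval of -1.10 to 1.36.

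Other genes linked with the intracellular pathogen response were followed in a list written by hand, of which 24 genes outside the pals family had a named probe. None was called by limma, against 8.0% of all probes (4.50% higher and 3.50% lower). The median residual SD of these genes was 0.80, against 0.48 over all probes. An unadjusted p under 0.05 was found in 8 of them, all higher in LiCl. That is 33.3%, against 12.1% of all probes on the higher side. The difference was above 0 in 21 of the 24, against 51.7% of all probes, and the median was 0.46, against 0.019 over all probes. Without LiCl replicate 1 the number above 0 was 17 (median 0.41), and on the 8 arrays of higher weight it was 18 (median 0.29). The 4 largest were chosen for naming after their values were seen. They were Y43F8B.12 (1.92, adjusted p = 0.0746, and 0.0483 without LiCl replicate 5), B0507.8 (1.47, adjusted p = 0.148), ZC196.3 (1.46, adjusted p = 0.173) and F26F2.4 (1.32, adjusted p = 0.122). Y43F8B.12 passed in only that 1 of the 12 fits leaving out 1 array, with adjusted p up to 0.143 in the others. pnp-1, which encodes a purine nucleoside phosphorylase that represses this response, differed by 0.81 ± 0.29 (SE, adjusted p = 0.111) and passed under quantile normalization alone of the settings tried (adjusted p = 0.0494).

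A second list covered the p38 MAPK pathway, part of the worm's defence against many bacteria, and other pathogen response genes. The 8 of its genes with a named probe are all pathogen response genes. No kinase or other component of the pathway itself was measured. Of the 8 measured genes 4 were called higher and none lower, against 4.50% of all probes called higher and 3.50% called lower. The median difference over the 8 genes was 0.99, against 0.019 over all probes and 0.056 over named genes. Among the 4 genes not called, irg-8 (-0.42) and F55G11.2 (-0.083) had differences below 0, and F55G11.8 differed by 0.10. This list and the one before it were chosen with earlier results of these data known, so their counts are descriptions only. irg-4 and irg-5, infection response genes, rose by 2.68 and 2.11 (limma adjusted p = 0.000763 and 0.000353) with no overlap between the groups. K08D8.5 rose as well. It had log ratios of -0.09, 0.62 and 1.04 (lowest, median and highest) on the LiCl arrays and -1.16, -0.49 and -0.02 on the control arrays, a difference of 1.09 ± 0.24 (SE, limma adjusted p = 0.0139). Its call was lost on the 8 arrays (0.91, adjusted p = 0.142) and with probes of a spread below the median left out (0.0597).

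C17H12.8 rose by 1.11 ± 0.31 (SE, limma adjusted p = 0.0439). Its log ratio was 0.75 on LiCl replicate 1 and between -1.10 and -0.61 on the other 5 LiCl arrays, against -2.19 to -1.05 on the control arrays. That call held in 3 of 12 fits with 1 array left out. sysm-1, formerly T24B8.5 and much used as a reporter of p38 activity, had a difference of 0.90 ± 0.26 (SE) and an adjusted p of 0.0556. Under quantile normalization its difference was 0.23 (adjusted p = 0.704), and without control replicate 6 it was 1.02 (adjusted p = 0.0438). The other fits that left out 1 array failed for sysm-1, with adjusted p up to 0.103. Further lists, of other antimicrobial effectors and of cullin-RING ubiquitin ligase machinery, held no gene with a named probe, so these lists are not analysed here.

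**Figure D4:**
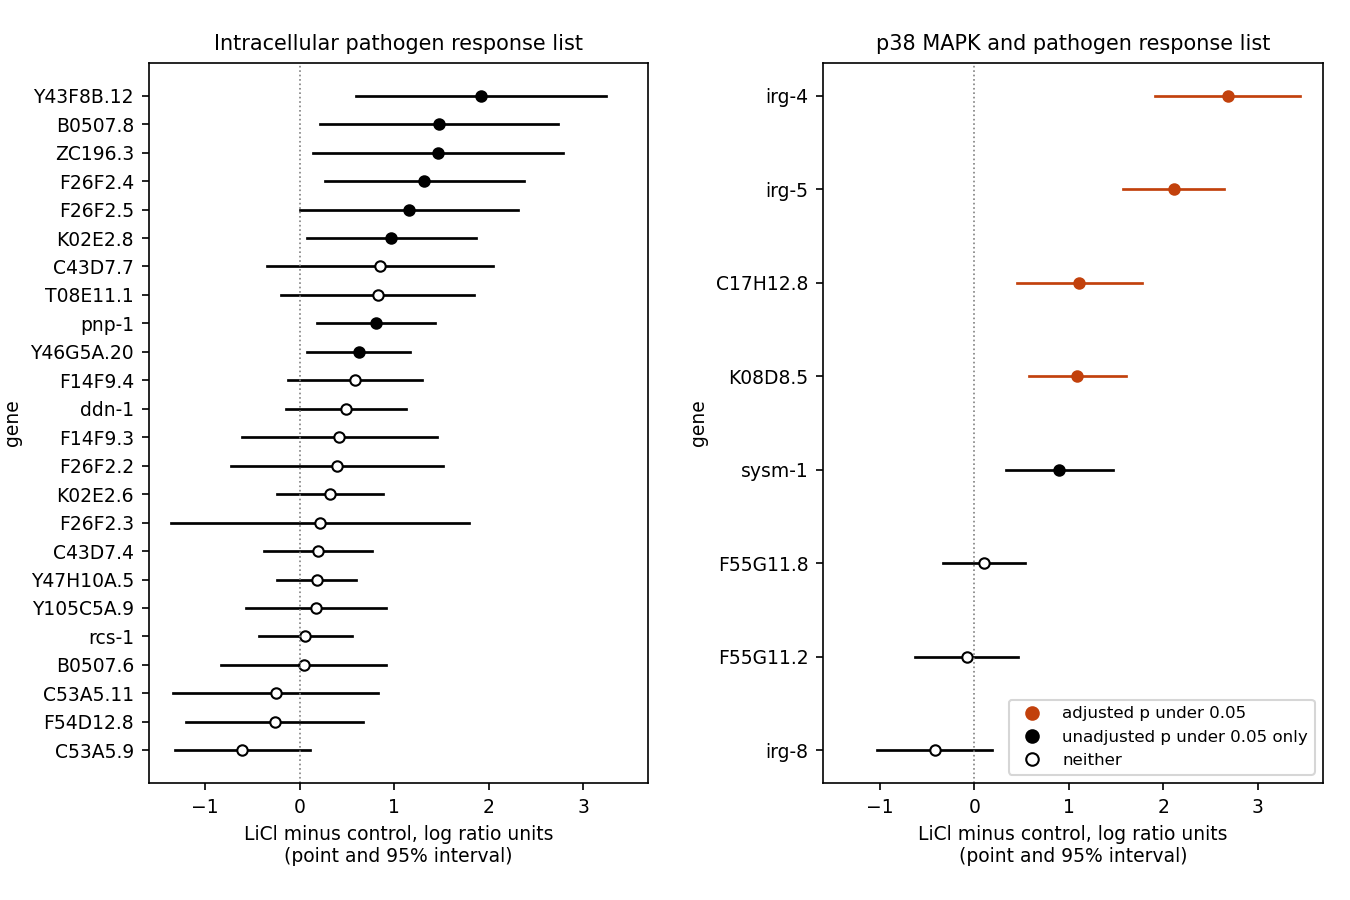
LiCl minus control difference in log ratio units (point, with its 95% interval), sorted by difference. Shown are the 24 listed intracellular pathogen response genes outside the pals family (left). On the right are the 8 measured genes of the p38 MAPK and pathogen response list, all of them response genes. No gene on the left and 4 genes on the right are past the adjusted threshold (orange).

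Since whole worms were extracted, less RNA per cell and fewer cells of a type cannot be told apart. Of the cell type markers listed, none of the intestine, epidermis, sperm, muscle or neuron genes had a named probe. The pharynx had 2, of which phat-8 rose (1.01, limma adjusted p = 0.0357) and pqn-15 fell (-0.96, adjusted p = 0.00749). The call of phat-8 held in 4 of the 12 fits that left out 1 array, and was lost with the replicate block (0.0697), on the 8 arrays (0.143) and with probes of a spread below the median left out (0.0973). That last setting also ended the call of pqn-15 (0.0727). The germline had 1, syp-6, which encodes a synaptonemal complex protein and fell (-0.77, adjusted p = 0.00931, and 0.0741 on the 8 arrays). Their part in the pals differences was not tested.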

How the data were processed

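RNA of 6 LiCl and 6 control samples was compared with 1 common reference on 2-colour arrays. The authors deposited a processed log ratio per probe and array, read here as log2, with background correction, normalization and filters not stated in the labels. Probe names came from the platform annotation and were updated by gene identifier to WBcel235 (8724 of 8757 named probes matched, 33 kept the older name). For a gene with several probes, the one with values on most arrays was used. Two-sided tests came from lmFit and eBayes of limma 3.58.1 under R 4.3.3, with group as the one term, for all probes with values on at least 4 arrays per group. P-values were adjusted over all 22370 probes by the Benjamini-Hochberg method, with a threshold of 0.05. The code was tested on simulated data. Precision is limited by the number of arrays.

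The members and lists were chosen with earlier results of these data known. The lists were written by hand from general knowledge, and genes were called neighbours, after their values were seen, where at most 10 protein-coding genes lay between them. Named are all pals genes, called members and list genes, the members with the largest differences and those nearest the threshold. Same-numbered samples were not treated as pairs, since their deviations from the group means correlated above 0.1 in 1 of 6 pairs. Alternatives covered normalization, variance models, weights, filters, thresholds, a replicate block, the mean of a gene's probes and leaving out arrays. Plots used matplotlib 3.10.9 (Python 3.11.15).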

Additional observations from a re-analysis of the deposited data

Results flagged for a closer look

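Of 56 sets of a probe and a group, 5 held a single array far from the rest of its group, where chance flags about 1 in 20. In pals-16 it was control replicate 5, the highest at 1.11. In pals-40 it was control replicate 2, the lowest at -0.41. In pals-13 it was LiCl replicate 6, the highest at 1.37. In spp-24 an array stood apart in each group, LiCl replicate 1 as the highest at 0.51 and control replicate 3 as the lowest at -0.92.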

How the results depend on the processing

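The setting with 8 arrays was chosen after seeing the data. On all 12 arrays 1 member was called (1 higher, 0 lower) among 1789 probes (1006 higher, 783 lower). Leaving out probes with a spread below the median, which removed pals-2, gave 0 members and 0 pals genes among 622 probes (432 and 190), and 2 genes of the p38 MAPK list. The replicate block gave 0 members and 0 pals genes, with pals-2 at 0.66. An adjusted p under 0.10 gave 3 members, all pals genes and higher, among 2836 probes (1554 and 1282), and 1 gene of the intracellular pathogen response list. Under 0.01 it gave 0 members, 0 pals genes, 2 of the p38 MAPK list and 649 probes (413 and 236). The 8 arrays gave 1 member, 0 higher and 1 lower, among 838 probes (521 and 317), and 2 of the p38 MAPK list. Quantile normalization called 1 gene of the intracellular pathogen response list, pnp-1. The cause was not tested beyond what these constructions show, such as fewer arrays or probes.

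Leaving out 1 array gave 0 to 2 members and pals genes (0 to 2 higher, 0 to 1 lower), 1181 to 1600 probes (697 to 976 higher, 479 to 681 lower), 0 to 1 genes of the intracellular pathogen response list and 3 to 4 of the p38 MAPK list. The lowest counts of all probes came without control replicate 4 (1181) and, for lower probes, control replicate 6 (479).

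Of the 27 members 14 kept their direction in every setting that tested them, among them pals-2, pals-22, pals-24 and pals-25, and 13 did not. Of the 13, only pals-5 and pals-33 turned solely when 1 array was left out. With array weights the sign turned in pals-17 (-0.084), pals-26 (-0.09), pals-40 (0.021) and spp-31 (0.059). On the 8 arrays it turned in fbxc-58 (-0.28), pals-3 (-0.086), pals-7 (-0.02), pals-13 (-0.11), pals-14 (-0.26), pals-17 (-0.16), pals-26 (-0.0065), pals-27 (0.21), pals-28 (0.017), pals-40 (0.29) and spp-31 (0.24). With 1 array left out the range included both signs in pals-5 (-0.13 to 0.35), pals-13 (-0.038 to 0.27), pals-14 (-0.23 to 0.61), pals-17 (-0.11 to 0.13), pals-26 (-0.20 to 0.21), pals-27 (-0.28 to 0.082), pals-28 (-0.40 to 0.057), pals-33 (-0.16 to 0.49), pals-40 (-0.24 to 0.0059), fbxc-58 (-0.38 to 0.46) and spp-31 (-0.12 to 0.033).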

Other observations

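The pals family could also be read array by array. The median log ratio over the 24 genes was 0.47, 0.10, 0.27, 0.25, 0.11 and 0.15 on LiCl replicates 1 to 6. It was 0.00, -0.14, 0.15, -0.06, 0.12 and -0.50 on control replicates 1 to 6. The groups overlapped, since control replicates 3 and 5 lay above LiCl replicates 2 and 5. LiCl replicate 1 was the highest LiCl array for 10 of the 24 pals genes, and control replicate 6 was the lowest control array for 9. The same counts over all probes were not made, and LiCl replicate 1 had the lowest array weight, so they are not particular to the family.

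In some pathogen response genes outside the family the LiCl arrays lay far apart, and the highest array was not the same in every gene. ZC196.3 stood at 3.57 on LiCl replicate 3, against -0.07 to 0.51 on the other 5 LiCl arrays and -2.16 to 0.34 on the control arrays. Without that array its difference was 0.92 in place of 1.46. F26F2.4 and B0507.8 were highest on LiCl replicate 1 (2.78 and 2.49) and next highest on LiCl replicate 2 (1.71 and 2.18), and without LiCl replicate 1 their differences were 0.94 and 1.16. Y43F8B.12 stood at 2.21, 2.97 and 2.23 on LiCl replicates 1, 3 and 4, slightly lower on LiCl replicate 6, and at 0.36 and 0.16 on LiCl replicates 2 and 5, against -1.85 to 0.91 on the control arrays.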
